A study of Drosophila melanogaster with 19 samples.

Results

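The peaks described here are those deposited for the m6A immunoprecipitation of untreated S2-DRSC cells (S2-DSRC in the labels), a line derived from Drosophila melanogaster embryos that resembles hemocytes, the blood cells of the fly. All 1974 peaks of that list were taken, of 82060 peaks in the 19 lists of the series. Each was set against the 4 libraries made with 0.6 U of a methyltransferase, called low-dose libraries below, and against the DNA input. In the low-dose libraries, nuclei received 0.6 U of Hia5, EcoGII, Btr192IV or EcoGI for 20 min at 37 °C, and DNA was recovered with an antibody against m6A. The untreated library used the same antibody on cells given no enzyme, and the input is DNA of untreated cells with no antibody step. Each of these 6 groups held 1 library. Differences between them therefore carry no replicate error and no test was made. The cell line is the only cell source in the series, and the peak lists hold no RNA by which its identity could be checked.

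N6-methyladenine (m6A) in DNA is written by bacterial and phage adenine methyltransferases and is scarce or disputed in animal genomes. Enzymes of this kind, added to nuclei, methylate adenines in DNA that chromatin leaves open, so that antibody-enriched DNA marks accessible sites such as active promoters. An immunoprecipitation without enzyme records what the antibody and the procedure recover from the genome's own DNA. Repeated sequence is a known source of peaks in any such library, because many genomic copies align to few assembled ones. In Drosophila the ribosomal RNA genes lie in tandem arrays in the heterochromatin of X and Y, and the DNA next to the centromeres is rich in transposon remains.

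A peak was counted as shared with another library when at least 1 bp overlapped a peak of that library. Of the 1974 untreated peaks, 1034 were absent from all 4 low-dose libraries (52.4%, 95% Wilson interval 50.2 to 54.6%). A further 676 were in 1 to 3 of them (34.2%), and 264 were in all 4 (13.4%, 11.9 to 14.9%). These sets are called the absent, partial and shared classes. All intervals given here are Wilson intervals at 95% that cover counting error only, and neighbouring peaks are not independent. Absence refers to the called peaks, since signal below the calling threshold is not in the lists. Few absent peaks lay just beside a low-dose peak, with 82 of 1034 (7.93%) within 200 bp of one and 188 (18.2%) within 1 kb.

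The untreated peaks lay in other places than the low-dose peaks. Gene ends, taken as the 500 bp on either side of each end of any annotated gene, held 48.9% of Hia5, 45.4% of EcoGII, 34.7% of Btr192IV and 36.7% of EcoGI peaks at 0.6 U, against 13.8% of untreated peaks (12.4 to 15.4%) and 25.0% of the 32 input peaks (13.3 to 42.1%). These windows make up 17.6% of the assembled arms. The centromere-proximal regions, taken as the 5 Mb of each large arm next to its centromere with all of chromosomes 4 and Y, held 10.8% of Hia5, 13.1% of EcoGII, 15.4% of Btr192IV and 16.6% of EcoGI peaks. They held 44.8% of untreated peaks and 78.1% of input peaks, and make up 21.8% of the arms. The untreated share thus lay below every low-dose library at gene ends and above every one near centromeres, with intervals that did not meet. These intervals count clustered peaks one by one. Runs of at least 4 peaks, each at most 1 kb from the next, held 38.3% of untreated peaks. They held 15.0% of Hia5, 16.4% of EcoGII, 9.29% of Btr192IV and 9.36% of EcoGI peaks. The part of such runs in the differences between libraries was not tested.

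**Figure D1:**
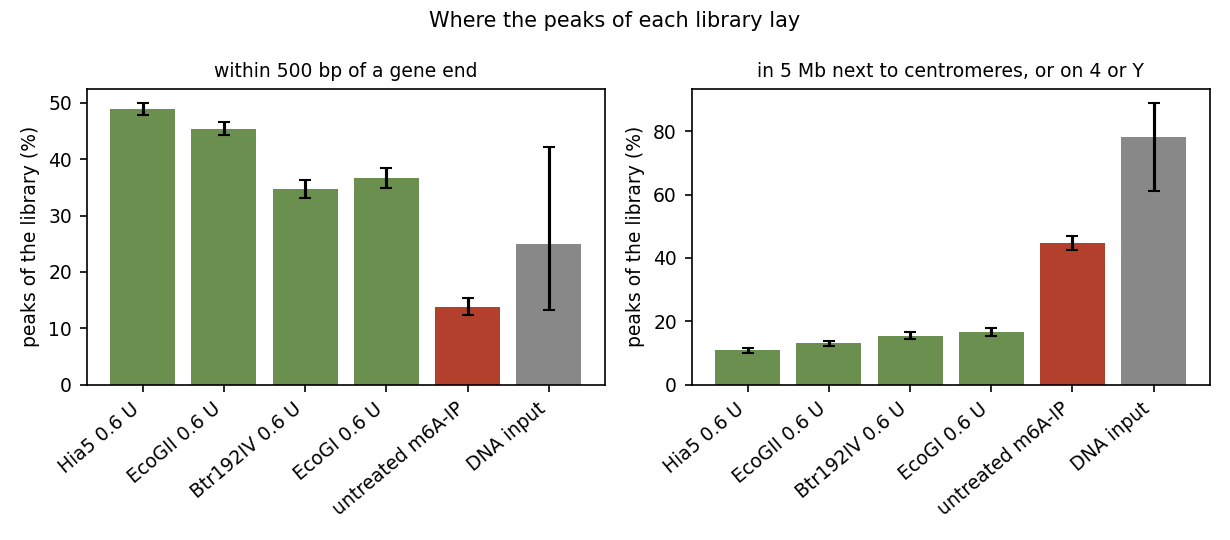
Share of each library's peaks within 500 bp of a gene end (left) and in the centromere-proximal regions with chromosomes 4 and Y (right), in percent, with 95% Wilson intervals as error bars (1 library per bar). The untreated bar stands at 13.8% on the left, below the 4 low-dose bars, and at 44.8% on the right, above them.

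The lists differ in length and, by an inferred measure, in depth, which bears on every overlap. The low-dose lists held 8080 peaks for Hia5, 6772 for EcoGII, 3692 for Btr192IV and 2916 for EcoGI, over 1734, 1435, 654 and 525 kb, while the 1974 untreated peaks covered 373 kb and the 32 input peaks 4.16 kb. Median peak widths were 216, 199, 160 and 162 bp in those low-dose lists, 155.5 bp in the untreated list and 129 bp in the input. Relative depth, read from the step of which the deposited heights are whole multiples, was 7.28 for Hia5, 9.89 for EcoGII, 8.78 for Btr192IV and 7.77 for EcoGI, 11.3 for the untreated library and 0.673 for the input. By this measure the untreated library was deeper than each low-dose library, and the input was the shallowest of the 6. Read totals and the unit of the heights are not given, so this order could not be checked. By library number in the labels, the untreated and input libraries stand beside 5 Hia5 libraries of higher dose and the low-dose libraries stand in a later stretch. At 0.6 U, library number and dose cannot be told apart, while Hia5 at 2 U and 6 U has a replicate in each stretch (values with the other doses).

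Heights separated the classes. The deposited height of a peak is the authors' own value and was used only as a rank within the untreated list, where the highest peak is at percentile 100. Absent peaks had a median percentile of 37.7 (quartiles 15.1 and 61.2), partial peaks 55.8, and shared peaks 87.4 (quartiles 61.2 and 96.6). The lowest shared peak was at percentile 20.4 and the highest absent peak at 95.5. In the lowest decile of the untreated list 87.9% of peaks were absent and 0 were shared, while in the highest decile 6.09% were absent and 62.9% were shared. The absent share did not fall evenly. It was 58.1% in decile 6 and 48.5% in decile 8, so that many peaks of middle and upper height also had no low-dose counterpart. In deciles 3 and 4 it was 56.6% and 51.3%, and X gave 45 and 86 of their peaks, against 10 in decile 6. Heights were ranked over all arms together, and the part of the arm in this pattern was not tested. All of the 50 highest untreated peaks were in the shared class.

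**Figure D2:**
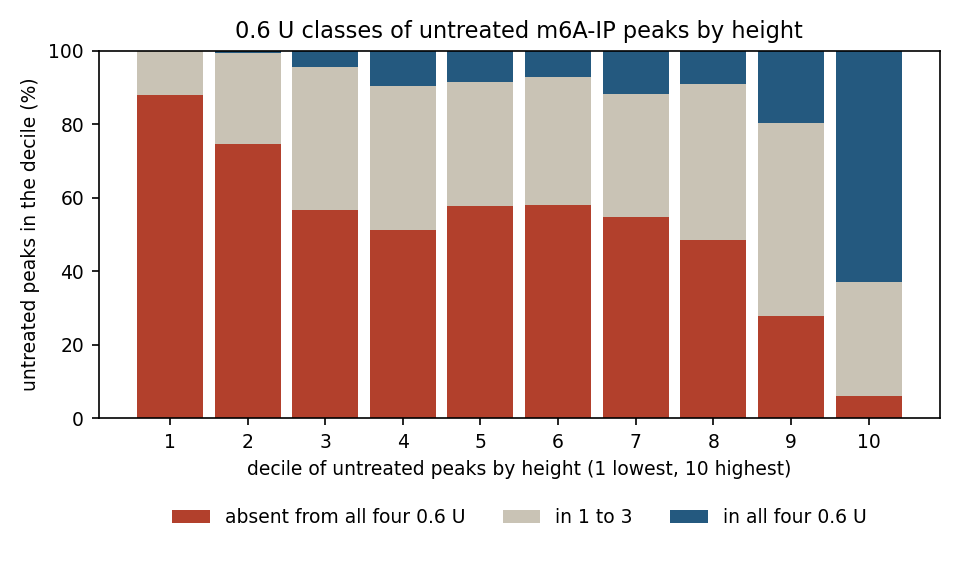
Untreated peaks split into deciles by deposited height (x axis, 1 lowest), with the percent of each decile that was absent from all 4 low-dose libraries, in 1 to 3 or in all 4 (stacked bars). Shared peaks are 62.9% of the highest decile, and absent peaks are 87.9% of the lowest.

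Width and position also differed between the classes. Absent peaks had a median width of 122 bp, partial peaks 189 bp and shared peaks 200 bp. Among peaks above the median height these widths were 122, 182 and 201 bp, so the absent peaks were the narrower ones there too. Gene ends held 117 absent peaks (11.3%, 9.53 to 13.4%) against 63 shared peaks (23.9%, 19.1 to 29.4%). Gene bodies held 509 absent peaks (49.2%) against 80 shared peaks (30.3%), and intergenic DNA held 408 (39.5%) against 121 (45.8%). Absent peaks were thus found less often at gene ends and more often in gene bodies, with intervals that did not meet. On X, gene ends held 11.5% of absent against 31.8% of shared peaks, while on 3R the shares were close (12.7% against 12.5%). Without X, gene ends held 35 of 176 shared peaks (19.9%), near the 17.6% of the arms that these windows make up. The absent share at gene ends without X was not computed. A wider peak meets a window or another peak more easily, and the part of width in these shares was not tested.

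The chromosome arms carried the classes unequally. X held 284 untreated peaks, of which 43.0% were absent and 31.0% (88 peaks) were shared, and 2R held 462, of which 59.7% were absent and 5.63% (26 peaks) were shared. The shares of the absent class were 47.6% on 2L, 55.3% on 3L, 51.4% on 3R, 54.3% on 4 and 47.8% on Y. The shared class made up 12.1% on 2L, 10.3% on 3L, 12.4% on 3R, 11.4% on 4 and 32.6% (15 peaks) on Y. X therefore contributed 11.8% of all absent peaks against 33.3% of all shared peaks, and 2R contributed 26.7% against 9.85%. The intervals of the shared class on 2R and X did not meet.

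**Figure D3:**
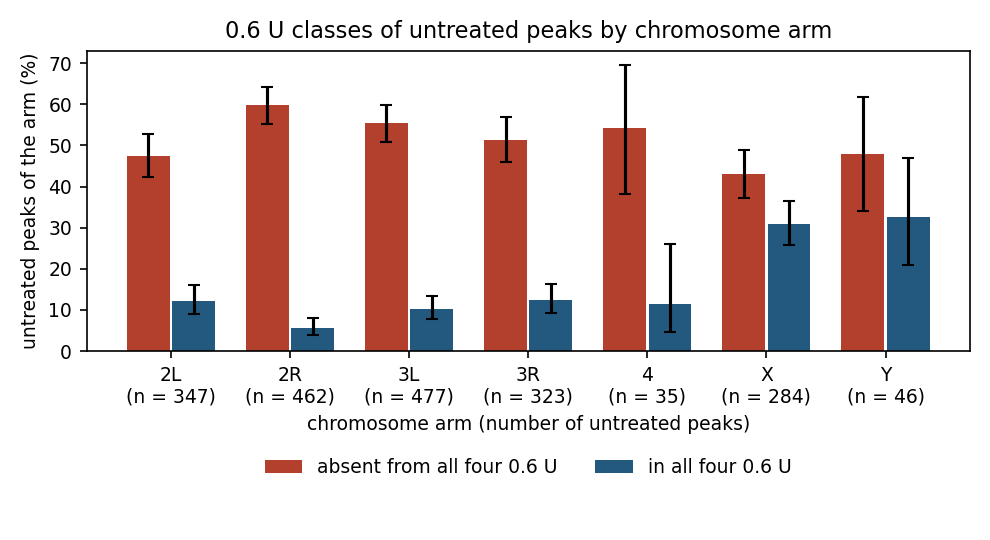
Percent of the untreated peaks of each chromosome arm that were absent from all 4 low-dose libraries (red) or in all 4 (blue), with 95% Wilson intervals as error bars and the number of untreated peaks under each arm. The shared bars stand at 31.0% on X and 32.6% on Y, against 5.63 to 12.4% on the other arms.

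The excess on X lay at the centromere end of the arm, where the ribosomal RNA arrays are assembled. The last 1 Mb of X held 69 untreated peaks, of which 3 were absent and 58 were shared. Those 58 had a median height percentile of 98.1, and 33 of the 50 highest untreated peaks lay there. The rest of X held 30 shared peaks. All 27 untreated peaks that touched an rRNA gene or rRNA pseudogene, or lay within 500 bp of its ends, were on X, and 26 of them were shared, with 1 absent. Reads from near-identical rRNA copies cannot be assigned to a copy, so the height at a single annotated copy is uncertain.

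Absence from the low-dose libraries was about as frequent near centromeres as in the whole list, at 469 of 885 centromere-proximal peaks (53.0%) and 466 of 816 (57.1%) without the last 1 Mb of X, against 565 of 1089 other peaks (51.9%). Near centromeres lay 469 absent peaks (45.4%, 42.3 to 48.4%) against 159 shared peaks (60.2%, 54.2 to 65.9%). The last 1 Mb of X held 3 of these absent and 58 of these shared peaks, which left 466 against 101. On X the shares were 16.4% of absent against 76.1% of shared peaks, and on 3R 22.3% against 55%. They were close on 2L (68.5% against 69.0%) and reversed on 2R (42.8% against 30.8%) and 3L (53.0% against 28.6%). Among the large arms the gap thus lay on X and 3R. Without X the shared share was 52.3%, and the absent share was not computed. With a 3-Mb window the shares over all arms were 24.2% of absent against 55.7% of shared peaks, and without dense runs 26.5% against 50.9%. Single blocks differed widely. On 3L, the stretch between 4 and 5 Mb from the centromere end held 74 untreated peaks, of which 71 were absent and 1 was shared. The same stretch of 2R held 100, of which 74 were absent and 3 were shared. On 2L, 57 of 65 peaks between 1 and 2 Mb were absent, while in the last 1 Mb 35 of 146 were absent and 23 were shared. On 3R, 7 of 37 peaks in the last 1 Mb were absent and 9 were shared, and between 2 and 3 Mb 7 of 23 were absent and 10 were shared. On 3L, 12 of 30 peaks between 1 and 2 Mb were absent. Absence thus changed from block to block along the pericentromeric DNA, and these blocks were chosen after their values were seen.

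Few untreated peaks overlapped the DNA input, and no absent peak did. Of the 1974 untreated peaks, 30 overlapped an input peak (1.52%), and 30 of the 32 input peaks were overlapped by an untreated peak. All 30 untreated peaks were in the shared class, where they made up 11.4%, and 0 of 1034 absent peaks overlapped the input (3 peaks of 1034, the limit taken for a count of 0, would be 0.290%). The height percentiles of the 30 untreated peaks ran from 93.2 to 100, with a median of 99.2, so every one of them lay in the highest decile of the untreated list. The shared class still held 234 peaks without an input peak. With an input of relative depth 0.673, weaker enrichment in the input may lie below what its list can show.

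X held 21 of the 32 input peaks, with 17 in its last 1 Mb. Of the input peaks, 9 touched an annotated rRNA gene, pseudogene or transcription unit or lay within 500 bp of its ends. They included the copies 18SrRNA-Psi:CR41602, 28SrRNA-Psi:CR45859, 28SrRNA-Psi:CR40741, 28SrRNA-Psi:CR41609 and the transcription unit pre-rRNA:CR45856. The other genes holding an input peak that an untreated peak met were CG44666 on 2R, Myo81F on 3R, a myosin gene spread over 1966 kb of heterochromatin, Pkcdelta on X, a protein kinase C gene, and kl-5 on Y, a dynein heavy chain needed for male fertility. At kl-5 (Y:22250-137486) the untreated peak was at percentile 98.7 of its list. The input peak in CG4911 on 3L, at percentile 3.125 of the input list, was met by no other library, and an input peak inside CG12535 on X was in all 4 low-dose libraries and not in the untreated one. Each low-dose library had 31 peaks over the input, from 0.384% of the Hia5 list to 1.06% of the EcoGI list.

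The 10 highest shared peaks all lay on X between 23205821 and 23535420 (dm6). The highest, X:23432861-23433100, had a deposited height of 252 in the untreated list, where the median peak had 4.67. It was at percentile 99.9 of the Hia5, 99.97 of the EcoGII, 99.8 of the Btr192IV and 99.8 of the EcoGI low-dose lists, 100 of the untreated list and 70.3 of the input list. Its neighbour at X:23433241-23433400 was the highest peak of each of the 4 low-dose lists and of the input, and at percentile 99.7 of the untreated list. These neighbours stood at or near the top of the lists made with enzyme and without it. Of the 10 peaks, 9 overlapped an input peak and 5 stood at an rRNA gene, pseudogene or transcription unit. Ranks in lists of different length are placed side by side here and show no change.

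The 10 highest absent peaks were of another kind and lay inside genes for the most part. They do not stand for all high absent peaks. The next highest, 3L:8703296-8703500 (percentile 90.3) and 3L:8684941-8685460 (90.1), were intergenic, in runs of 17 and 14 closely spaced untreated peaks. In sty (3L:3401153-3424935), which encodes Sprouty, a brake on receptor tyrosine kinases, a 96-bp peak stood at percentile 94.9, and 3 of the 13 treated libraries at other doses or with Hin1523 had a peak there. In Fmr1 (3R:10101420-10110121), the fly relative of the fragile X RNA-binding protein, a 333-bp peak stood at 94.1 and was found in 0 of the 13. In Xbp1 (2R:21143545-21145750), a transcription factor of the unfolded protein response, the peak stood at 90.7 and was likewise found in 0. Peaks in sli, the midline ligand Slit (2R:15869495-15922118, percentile 93.0), and in Smr, a nuclear receptor corepressor (X:12684203-12742618, percentile 92.0), were found in 1 and 2 of the 13. The remaining members of the 10 were in CG43338 and frm and at 3 intergenic sites, among them the highest absent peak of all, 4:1295861-1296160, at percentile 95.5. That site had a peak in 7 of the 13, so absence at 0.6 U did not mean absence from all treated cells.

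At gene ends, absent peaks reached 88 of 13946 protein-coding genes (0.631%) partial peaks reached 61 (0.437%) and shared peaks reached 42 (0.301%), while untreated peaks of any class reached 182 (1.31%). The low-dose libraries had a peak at an end of 4096 protein-coding genes for Hia5 (29.4%), 3225 for EcoGII (23.1%), 1310 for Btr192IV (9.39%) and 1103 for EcoGI (7.91%). Of the 88 genes with an absent peak, 34 (38.6%, 29.1 to 49.1%) had a low-dose peak elsewhere at their ends, close to the 33.1% of all protein-coding genes. In all 4 low-dose libraries 6 of the 88 (6.82%, 3.16 to 14.1%) had one, against 5.13% of all protein-coding genes. Both intervals held the share of genes at large. CG44666 and Rev1 had both an absent and a shared peak at their ends.

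Of the 10 genes with the longest absent coverage at their ends, 5 lay in pericentromeric runs of low peaks. Coverage was 918 bp at CG43968 (3L:23784231-23787405) and 685 bp at Nubpl (2L:22239916-22246988), which helps assemble mitochondrial complex I. It was 608 bp at RpL21 (2L:22247111-22247875), a protein of the large ribosomal subunit, and 364 bp at Tif-IA (2L:22249876-22258260), an initiation factor of RNA polymerase I. All the peaks counted at these 4 genes stood between percentiles 3.06 and 31.5. The facing ends of Nubpl and RpL21 lie within 500 bp of each other, so peaks there can count for both. RpL21, CG43968 and Tif-IA had no low-dose peak at their ends in any of the 4 libraries, and Nubpl had one in Hia5 alone.

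Other genes of that group carried higher peaks. The odorant-binding protein gene Obp99c (544 bp) and the neighbouring gene Gycalpha99B (371 bp), a subunit of soluble guanylyl cyclase, held absent peaks between percentiles 73.2 and 81.2 on 3R. The facing ends of these genes overlap, so peaks there count for both. At Mst36Fb (2L, 309 bp), a testis-expressed gene just inside the centromere-proximal region, 2 absent peaks stood at 84.3 and 90.0. None of these 3 genes had a low-dose peak at an end, while 7 of the 13 other treated libraries had one at Mst36Fb and 4 had one at each of the other two. Rev1 (342 bp), a DNA polymerase of translesion synthesis, and Reg-2 (340 bp) instead had low-dose peaks at their ends in all 4 libraries beside the absent one. CG17883 (450 bp), the last of the pericentromeric genes, had peaks up to percentile 11.6, and no treated library had a peak at its ends.

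Long shared coverage at gene ends lay at neighbouring genes near the tip of 3L. CG3402 (3L:651542-652881) had 498 bp under shared peaks, and MED30 (3L:652987-654089), a Mediator subunit, had 413 bp. The shared peak at MED30, 3L:653319-653832, also counted for CG3402. Their peaks stood between percentiles 84.3 and 92.5, and 12 of the 13 other treated libraries had a peak at the ends of each gene. Other genes of this group were CG40635 on Y (340 bp), gl (265 bp), which encodes the photoreceptor transcription factor Glass, CG15635 (249 bp), alpha-Man-Ia (247 bp), a Golgi mannosidase, CG43332 (242 bp), Sgs3 (241 bp), a salivary glue protein, and CG1486 (240 bp). Each of these had 1 shared peak at its ends. Heights spread widely among them, with alpha-Man-Ia at percentile 36.1 and Sgs3 at 92.8. Among non-coding genes the shared class reached 11 of 18 rRNA pseudogenes, 2 of 98 rRNA genes and 2 of 260 microRNA genes (mir-10404-4 and mir-10404-5). It also reached 11 of 1995 lncRNA genes and 2 of 503 antisense RNA genes.

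Gene lists chosen for this cell line, for repeats and for genes that should be silent held few untreated peaks at their gene ends. In most lists a class reached at most 1 gene, too few to say whether a list differed from genes at large. Of all 17807 genes of any kind, absent peaks reached the ends of 113 (0.635%) and shared peaks those of 72 (0.404%). Absent peaks reached 1 of 12 hemocyte genes, Col4a1, a collagen IV chain that hemocytes secrete, at 2L:5029609-5037279. They also reached 1 of 14 Hox and segmentation genes, hry, the pair-rule repressor Hairy, 1 of 85 cytoplasmic ribosomal protein genes, RpL21, and 1 of 51 odorant-binding protein genes, Obp99c. Of 111 genes of the histone repeat, absent peaks reached 1 and shared peaks reached 3, namely His1:CG33864, His2A:CG33865 and His2B:CG33868. These copies are near-identical, so the assignment to a copy is uncertain. Shared peaks reached 1 of 26 mucin genes, Sgs3, and the 2 microRNA genes. In the lists of 15 heat shock, 5 muscle, 5 germline, 5 neuronal and 16 Jonah protease genes, neither class had a peak at a gene end. The same held for the 257 small nucleolar RNA, 295 transfer RNA, 185 chemoreceptor and 123 cuticle protein genes.

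In gene bodies, absent peaks lay in 350 protein-coding genes without one at a gene end (2.51%), partial peaks in 199 (1.43%) and shared peaks in 63 (0.452%). A long gene meets a peak more easily, and length was not adjusted for. Of 22 genes known to lie in pericentromeric heterochromatin, with a median length of 26.6 kb against 2.16 kb for all protein-coding genes, absent peaks reached the ends of 0 but lay in the bodies of 5, namely Haspin, a histone kinase, Nipped-A, the scaffold of histone acetyltransferase complexes, Parp1, a poly(ADP-ribose) polymerase, Snap25, a synaptic SNARE protein, and uex. A shared peak lay in the body of 1, rl, the fly ERK kinase. Of 5 neuronal genes, with a median length of 27.7 kb, absent peaks lay in the bodies of 3, namely brp, futsch and nSyb. Of 12 hemocyte genes, with a median length of 15.0 kb, they lay in the body of 1.

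Many untreated peaks stood in dense runs, defined as at least 4 untreated peaks of which each lay at most 1 kb from the next. There were 80 such runs with 756 peaks (38.3% of the list), from 1.18 to 15.4 kb long with a median of 3.65 kb, and the median spacing was 485 bp. Runs held 37.1% of absent peaks against 34.5% of shared peaks. Of the 80 runs, 56 lay near centromeres, 32 touched a protein-coding gene, 30 consisted of absent peaks alone (209 peaks) and 5 of shared peaks alone (37 peaks). Absent peaks in runs were low, with a median percentile of 14.7 against 52.0 outside runs. Shared peaks in runs were high, with 92.5 against 83.8 outside.

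The runs named next were picked after their values were seen. The largest run, 31 peaks at 2R:5243083-5258462 over the end of Nipped-A, had 25 peaks in the EcoGII low-dose library and 0 in those of Hia5, Btr192IV and EcoGI. At other doses EcoGII had 25 of them at 2 U and 27 at 6 U, Hia5 had 29 in the first replicate at 2 U, and the other 10 libraries had 0. Replicate 2 of Hia5 at 2 U, the same enzyme and dose, thus had 0 where replicate 1 had 29. The run of 20 peaks over Nubpl and RpL21 (2L:22237414-22248160) had 1 peak in Hia5 at 0.6 U and 0 in the other low-dose libraries, while 16 were in replicate 1 of Hia5 at 2 U and 19 in EcoGII at 6 U.

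Other runs showed the remaining patterns. In CG40470, a gene of 147 kb on 3L, 17 of 17 peaks of a run were absent, and the whole gene held 48 absent peaks, the most of any protein-coding gene, followed by Myo81F with 15 and Snap25 with 13. The rRNA run at X:23277981-23284160 had 12 of 12 peaks shared, 4 of them over input peaks. In Myo81F a run of 9 peaks at 3R:2085281-2089200 was wholly shared and was in all 13 other treated libraries, without an input peak. In the same gene a run of 13 peaks at 3R:638541-644456 had 8 in EcoGI and 0 in each of the other low-dose libraries.

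Many runs were missing as blocks. Over the 80 runs and 17 treated libraries there were 1360 pairs of run and library. In 601 pairs (44.2%) the library had none of the run's peaks, in 418 (30.7%) it had some but under 80%, and in 341 (25.1%) it had at least 80% of them. At 0.6 U, EcoGII had at least 80% of the peaks in 25 runs, Btr192IV in 15, EcoGI in 9 and Hia5 in 8. EcoGII at 6 U, whose list is the longest of the series, had at least 80% of the peaks in 62 of the 80 runs and in 21 of the 30 wholly absent ones. Peaks of 1 run are thus not independent observations, and the class counts with each run's peaks counted apart weight such blocks heavily.

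**Figure D4:**
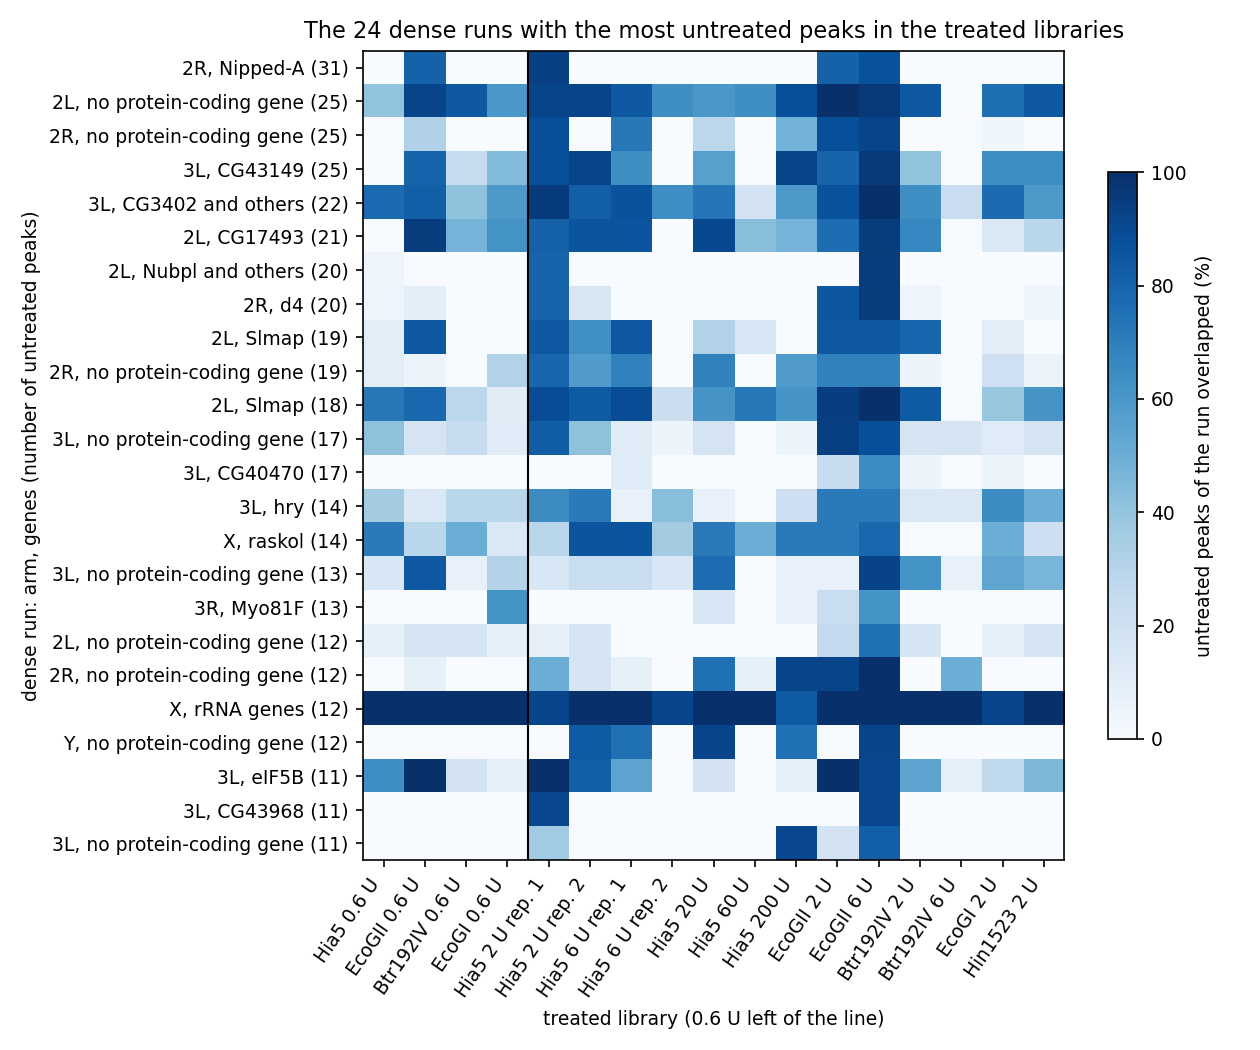
Percent of the untreated peaks of a run (rows, 24 runs with the most peaks, at least 11 each) overlapped by each treated library (columns, low-dose libraries left of the line). The Nipped-A run is dark in EcoGII at all 3 doses and in replicate 1 of Hia5 at 2 U and white elsewhere, and the X rRNA run is dark in every column.

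The 13 treated libraries at other doses, or with Hin1523, had no part in forming the classes, though they share the cells and the antibody with them. An absent peak was in a median of 1 of these 13 libraries (quartiles 0 and 2, highest 11), a partial peak in 6, and a shared peak in 12 (quartiles 10.75 and 13, lowest 4). Of the absent peaks 387 (37.4%, 34.5 to 40.4%) were in none of the 13, against 0 of the shared peaks, and 0 absent peaks were in all 13, against 121 shared peaks (45.8%, 39.9 to 51.9%). The order of the classes was the same on either side of the median height, with medians of 1, 6 and 13 libraries above it and 1, 6 and 11 below it.

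Single libraries differed widely in how many absent peaks they held. EcoGII at 6 U held 52.8% of absent peaks against 99.2% of shared peaks, and EcoGII at 2 U held 19.3% against 95.5%. Hia5 at 2 U held 20.6% of absent peaks in replicate 1 and 8.12% in replicate 2, and 94.3% and 95.1% of shared peaks. Replicate 1 of Hia5 at 2 U and at 6 U stands beside the untreated library by library number and replicate 2 in the stretch of the low-dose libraries. At 6 U these replicates held 9.38% and 2.42% of absent peaks and 88.3% and 81.1% of shared peaks. Between replicates of 1 enzyme and dose the absent share therefore differed by more than the shared share at 2 U, and by a similar amount at 6 U. Hia5 held 11.7% of absent peaks at 20 U, 1.64% at 60 U and 17.9% at 200 U, with 83.0%, 67.0% and 78.0% of shared peaks. Those 3 lists held 2494, 772 and 4054 peaks. The EcoGII list at 6 U held 13395 peaks, and the part of list length in these shares was not tested. Btr192IV held 4.16% at 2 U and 3.19% at 6 U, EcoGI 3.29% at 2 U and Hin1523 4.64% at 2 U. In each of the 13 libraries the shared class was found more often than the partial class and the partial class more often than the absent class.

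**Figure D5:**
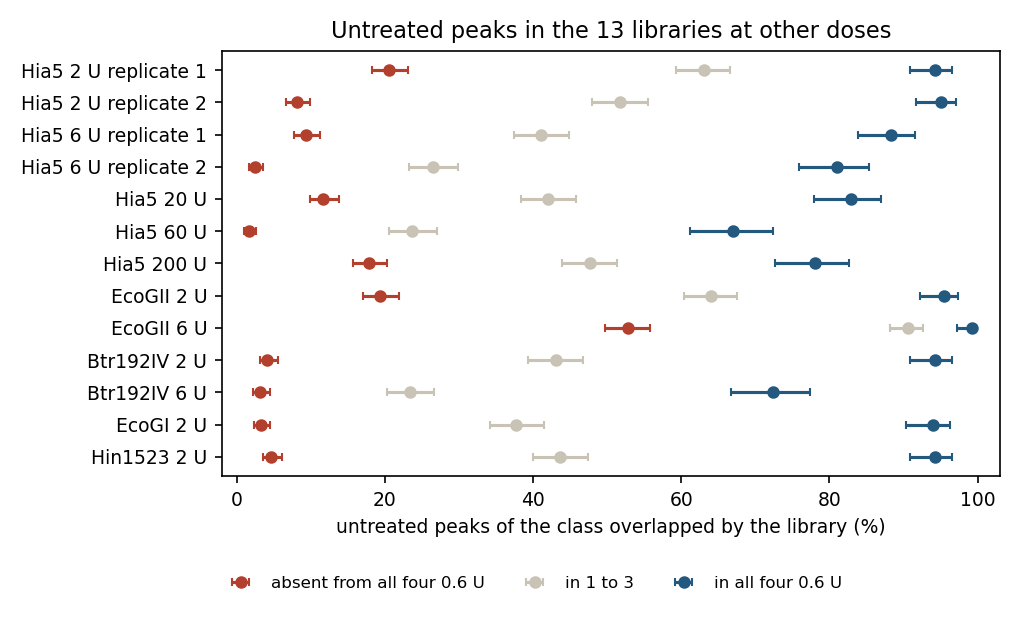
Percent of the absent (red), partial (grey) and shared (blue) untreated peaks overlapped by each of the 13 treated libraries that did not define the classes, with 95% Wilson intervals as error bars. Absent peaks range from 1.64% in Hia5 at 60 U to 52.8% in EcoGII at 6 U, and shared peaks from 67.0 to 99.2%.

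The absent class had distinct portions by these 13 libraries. The 387 untreated peaks in no treated library at all had a median height percentile of 49.8 and a median width of 101 bp, and 64.3% of them lay in gene bodies, 25.8% near centromeres and 11.4% in dense runs. The 647 peaks that were absent at 0.6 U but in at least 1 other treated library had a median percentile of 26.3 and a width of 141 bp, with 40.2% in gene bodies, 57.0% near centromeres and 52.6% in dense runs. The peaks seen only without enzyme were thus higher, narrower and more often inside genes than the absent peaks that came back at other doses. The 121 untreated peaks in all 17 treated libraries had a median percentile of 96.6, 76.9% lay near centromeres, 58 were on X and 28 overlapped an input peak.

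The 4 enzymes recovered different parts of the untreated list. Hia5 at 0.6 U had 479 of the untreated peaks (24.3%), EcoGII 742 (37.6%), Btr192IV 561 (28.4%) and EcoGI 465 (23.6%). EcoGII was the only low-dose library at 182 untreated peaks, against 43 for Hia5, 63 for Btr192IV and 33 for EcoGI. These numbers compare lists of unequal length. Seen from the other side, peaks over an untreated peak made up 5.87% of the Hia5, 10.8% of the EcoGII, 15.0% of the Btr192IV and 15.9% of the EcoGI list. With each list held to its 2916 highest peaks, the shares were 6.52%, 8.50%, 13.9% and 15.9%, or 190, 248, 406 and 464 peaks, so that EcoGII no longer had the most.

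Those overlaps were concentrated away from gene ends. At gene ends 2.41% of Hia5, 4.36% of EcoGII, 8.67% of Btr192IV and 8.32% of EcoGI low-dose peaks overlapped an untreated peak. Among intergenic peaks the shares were 23.7%, 36.1%, 32.9% and 42.1%, and among centromere-proximal peaks 27.2%, 38.1%, 46.5% and 51.5%. When low-dose peaks were merged into sites, 1720 sites had all 4 enzymes, and 257 of them (14.9%) had an untreated peak. These 257 sites lay at gene ends in 26.5% of cases (21.4 to 32.2%) and near centromeres in 59.1%, against 45.3% (42.8 to 47.9%) and 6.63% of the 1463 sites without an untreated peak.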

How the data were processed

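Per the labels' protocols, nuclei were treated with methyltransferase and short DNA fragments were made into Illumina libraries. The authors deposited 1 peak list per library with a height per peak in a tag-density signal, on dm6, at an FDR of 5% per the file names. The submitters' processing notes name BWA 0.7.12 and SAMtools 1.2. Not given in the sources used here are the peak caller, read totals and whether input was subtracted. Relative depth, which gives no number of reads, is the inverse of the step of which the deposited signal heights are whole multiples (tolerance 0.05 of a step).

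Overlaps, positions and shares were computed with Python 3.11.15, pandas 2.3.3 and numpy 2.4.6, and interval code was tested on simulated data. Genes (17807, of which 13946 protein-coding) came from a RefSeq table of the same release 6 assembly, which has starts and ends without strand, exons or sequence. A peak outside the 500-bp windows around gene ends but inside a gene was counted in its body, and other peaks were intergenic. Arms end at the furthest gene or peak. Of the untreated peaks, 64 overlap an earlier peak of the list and were kept.

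Genes were named by rule: per class, the 10 protein-coding genes with most bases under peaks at their ends, the genes at the 10 highest peaks, list members at gene ends and genes at input overlaps. A gene this rule names is not reported here. Other genes named with runs and bodies were chosen after their values were seen. The classes and lists were chosen with earlier results of these data known. With 1 library per group no test was made. Alternatives changed the overlap, list length, windows, unit of counting and enzymes used, and are given in the closing section. Sequences were not used here.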

Additional observations from a re-analysis of the deposited data

How the results depend on the processing

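Across 76 alternatives for 19 results, 36 values stayed inside the interval of the value reported (counts within 1.5 times) and 40 moved outside it. The absent share of 52.4% became 59.7% when 50% of a peak had to be covered, 38.3% above the median height, 67.9% with the low-dose lists at the equal length of 2916 peaks, 61.6% without EcoGII, 55.6% without Btr192IV and 48.2% when a low-dose peak within 200 bp counted (added after seeing the data). The shared share of 13.4% became 9.22% at 50% covered, 22.4% above the median height, 7.45% at equal length, 16.3% with peaks within 1 kb joined, 17.1% without Hia5 and 15.7% without EcoGI. The input overlap of 1.52% became 3.10% above the median height. The median percentile of shared peaks became 92.5 at 50% covered, 95.8 at equal length and 82.2 without X (added). Gene ends held 15.4% of absent peaks above the median height, 14.0% with peaks joined, 5.42% in 200-bp and 19.1% in 1000-bp windows, and 31.3% of shared peaks at equal length and 12.9% in 200-bp windows. Dense runs held 40.2% of absent peaks at equal length and 24.3% at 500-bp spacing, and 28.6% of shared peaks at 50% covered, 40.8% at equal length and 22.7% at 500-bp spacing. Centromere-proximal shares became 24.2% of absent peaks with a 3-Mb window, and without dense runs (added) 26.5% of absent against 50.9% of shared peaks. Without X (added) that share was 52.3% of shared peaks. An absent peak was in a median of 2 other treated libraries at equal length. Low-dose peaks over an untreated peak became 4.75% for Hia5, 8.68% for EcoGII, 12.1% for Btr192IV and 12.6% for EcoGI at 50% covered, and 6.52% for Hia5 and 8.50% for EcoGII at equal length. List members at gene ends became 13 for absent peaks with 1000-bp windows (5 reported) and 3 for shared peaks with 200-bp windows (6 reported). Between the absent and shared classes, the order of heights, gene-end shares, centromere-proximal shares and other treated libraries was the same under every alternative that gave both values. Leaving out X or the input-overlapping peaks was computed without the absent class, so the order was not checked there. By arm, the centromere-proximal order was reversed on 2R and 3L. The order of the dense-run shares turned at equal length. The causes were not tested. No paired analysis was possible because each group compared held 1 library. The low relative depth of the input, if that measure holds, limits what can be called absent from it.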

Other observations

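Mucin genes, whose coding regions hold repeats, had peaks of the partial class in the bodies of 8 of 26 genes, among them Muc30E, Muc96D and Sgs1, where 1.43% of all protein-coding genes had one. Absent peaks lay in the bodies of 3, Muc14A, Muc4B and Mur2B, where 2.51% of all protein-coding genes had one. The mucin genes had a median length of 2.51 kb, and all protein-coding genes 2.16 kb. No test was made, and the group was picked after its values were seen.

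The partial class had its own leading genes at gene ends. CG43149 had 979 bp under partial peaks, with low-dose peaks at its ends in EcoGII, Btr192IV and EcoGI and none in Hia5, and Slmap, a component of the STRIPAK phosphatase complex, had 919 bp, with Hia5 and EcoGII alone. Of the peak patterns, EcoGII, Btr192IV and EcoGI without Hia5 was the most frequent combination of 3 enzymes, at 73 untreated peaks, against 45 for the set without EcoGI, 25 for the set without Btr192IV and 17 for the set without EcoGII.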
